A study of Mus musculus with 6 samples.

Results

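The 8 long non-coding RNA genes described here were measured in 6 RNA-seq libraries of cultured mouse muscle stem cells: Malat1, Neat1, Kcnq1ot1, Gas5, Snhg1, Snhg3, Snhg8 and Snhg12. They were taken by symbol from the count table, which has 55494 rows, and all 8 symbols were found in it. Of these, 7 passed the filter on low counts and were tested, and Snhg3 had 0 counts in all 6 libraries. Muscle stem cells are the resident progenitors of skeletal muscle fibres. All libraries came from primary cells of wildtype mice, isolated and kept in culture for 2 days, 3 of them as controls and 3 with 11,12-EET, an epoxyeicosatrienoic acid made from arachidonic acid by cytochrome P450 enzymes. The labels used here state neither the dose, nor the control medium, nor the age of the mice. Nor do they say whether the libraries of a group came from separate mice or cultures, and p-values accordingly cover the library-to-library spread alone, possibly a technical one.

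Malat1 is retained in the nucleus at nuclear speckles, which hold splicing factors. Neat1 is the scaffold on which paraspeckles assemble; its long isoform is the architectural one. Neither the Malat1 transcript nor long Neat1 ends in an ordinary poly(A) tail: RNase P cuts the precursor and the new end folds into a triple helix. Kcnq1ot1 is an imprinted transcript of the paternal chromosome that lies antisense within Kcnq1 and silences neighbouring genes in cis. Gas5 and the Snhg genes carry small nucleolar RNAs (snoRNAs) in their introns, which guide chemical modification of ribosomal RNA and other RNAs once the intron is debranched. Many spliced host RNAs start with a run of pyrimidines, the hallmark of messages whose translation follows growth signals, and are turned over by nonsense-mediated decay when translated.

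The promoters of the 4 snoRNA hosts that carried counts are shown for the letters around their starts. Each line gives 100 bases of the RefSeq promoter (GRCm38.p6), 50 before the RefSeq start and 50 from it, in the direction of transcription. Capitals mark TATA between positions −40 and −15 and the longest run of C and T between −10 and 20. Gas5 (chr1:161035116-161035215, plus strand), Snhg1 (chr19:8723437-8723536, plus strand), Snhg8 (chr3:123508287-123508386, minus strand) and Snhg12 (chr4:132308628-132308727, plus strand) read as follows.
Gas5: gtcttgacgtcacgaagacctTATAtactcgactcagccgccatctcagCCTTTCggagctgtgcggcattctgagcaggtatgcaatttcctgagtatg
Snhg1: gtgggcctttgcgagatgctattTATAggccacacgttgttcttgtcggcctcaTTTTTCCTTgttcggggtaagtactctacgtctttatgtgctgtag
Snhg8: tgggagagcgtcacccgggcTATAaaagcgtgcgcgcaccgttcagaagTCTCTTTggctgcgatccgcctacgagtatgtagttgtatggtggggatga
Snhg12: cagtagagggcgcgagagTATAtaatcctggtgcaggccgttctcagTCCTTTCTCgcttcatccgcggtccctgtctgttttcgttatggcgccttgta
The letters TATA, read on the transcribed strand, began at −29 in Gas5, −27 in Snhg1, −30 in Snhg8 and −32 in Snhg12. The same window held TATA in 5.91% of 32817 promoters of the same length, and did not hold it in Malat1, Snhg3 or Kcnq1ot1. The pyrimidine runs were 6 letters long in Gas5, 9 in Snhg1, 7 in Snhg8 and 9 in Snhg12, beginning at −1, 5, −1 and −3, so that of Snhg1 lay downstream of its RefSeq start. The longest run was 5 in Snhg3 and 4 in Malat1 and Kcnq1ot1. A run of at least 6 was found in 28.7% of promoters, of at least 7 in 17.9% and of at least 9 in 7.1%. TGACG, the core letters of the cyclic AMP response element searched on both strands of the 300 bases, occurred 2 times in Gas5, 3 times in Snhg8, 2 times in Snhg12, 3 times in Malat1, 1 time in Kcnq1ot1 and 0 times in Snhg1 and Snhg3, and 20.8% of promoters held it at least once. A stretch that reads the same on both strands counts 2 times: both matches in Gas5 come from 1 stretch, tgacgtca, in the line above. A match is a description of these letters and not of a bound factor. The promoter table matched 7 of the 8 genes; Neat1 was not matched. Gas5 has more than 1 RefSeq start, and the one shown, at 161035166, lies near the starts of 14 of its 25 GENCODE transcripts. The other, at 161034601, lies near 1 of the 25 and had no TATA in the window, a longest pyrimidine run of 3 and 0 TGACG.

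The 3′ parts of Malat1 and Neat1, shown because they replace the poly(A) tail, share 3 stretches of at least 10 bases, in capitals. They were read from GENCODE M21 transcripts on GRCm38. The Malat1 line covers positions 6592 to 6691 of 6983 (chr19:5795982-5796081, minus strand), and the Neat1 line covers 20672 to 20771, the end of the long isoform (chr19:5824708-5824807, minus strand).
Malat1: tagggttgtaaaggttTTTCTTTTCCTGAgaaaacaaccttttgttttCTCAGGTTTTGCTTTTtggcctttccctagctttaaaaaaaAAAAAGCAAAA
Neat1: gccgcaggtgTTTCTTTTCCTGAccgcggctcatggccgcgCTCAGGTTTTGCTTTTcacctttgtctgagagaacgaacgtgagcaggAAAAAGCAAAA
The shared stretches are 13, 16 and 11 letters long, U-rich in the RNA for the first pair and A-rich for the last. AAAAGCAAAA, on the transcript strand, was present in 1.12% of 141767 GENCODE transcripts. The annotated Malat1 transcript runs 292 bases past it and the Neat1 transcript ends on it. Kcnq1ot1, a single unspliced transcript of 93092 bp, instead carries 10 internal runs of at least 10 A. The longest, 41 letters in capitals, is printed within a window of 100 bases, positions 69535 to 69634 (chr7:143226916-143227015, minus strand), and is shown because the libraries were selected with oligo(dT).
Kcnq1ot1: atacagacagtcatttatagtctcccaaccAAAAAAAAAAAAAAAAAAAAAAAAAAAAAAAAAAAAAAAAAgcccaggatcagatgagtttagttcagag

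Library totals lay between 30371291 and 37243882 counts. The 8 genes together took 0.0791 ± 0.0112% of the counts in controls and 0.0715 ± 0.00282% with EET (mean ± SD, n = 3 libraries each). Levels are given as CPM, the count scaled to the library's TMM-adjusted total. Summed CPM of 10 muscle stem cell markers were 3509 to 3799 in controls and 3988 to 4058 with EET, so markers of the labelled cell type were present. The sums for 6 endothelial markers were 244 to 259 and 139 to 159, for 6 fibro-adipogenic markers 347 to 350 and 330 to 343, and for 6 macrophage markers 80.2 to 88.0 and 44.8 to 78.7. Those for 5 Schwann cell markers were 359 to 366 and 271 to 293, and for 5 pericyte markers 356 to 374 and 321 to 349. Sums for 4 erythroid markers reached at most 42.1 and 23.5. With EET, 4 of 10 muscle stem cell markers rose and 2 fell, and 5 of 6 endothelial markers fell and 0 rose. Of the Schwann markers 1 rose and 4 fell, and of the pericyte markers 1 rose and 3 fell. Of the macrophage markers 2 fell, of the fibro-adipogenic markers 1 fell, and 0 of 3 erythroid markers tested were called. Over all genes tested, 24.6% were called higher and 23.3% lower. In a fit that removes each library's trend of counts with transcript length and GC content, 1 muscle stem cell marker rose and 2 fell. In that fit 5 endothelial, 3 Schwann, 3 pericyte, 4 macrophage and 2 fibro-adipogenic markers fell and 0 rose. Over all genes it called 15.2% higher and 17.2% lower. No marker was at 0 in all libraries. Their part in the results below was not tested. In bulk samples, fewer cells of a type and less RNA per cell cannot be told apart.

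The 4 snoRNA hosts rose with EET and the 3 large nuclear RNAs did not: 4 of the 7 measured genes were called higher and 2 lower (quasi-likelihood test of edgeR, with calls made at a Benjamini-Hochberg adjusted p under 0.05). Across all 16097 genes tested, 24.6% were called higher, 23.3% lower and 47.9% either way, so calls were common in this comparison. The values of control and EET libraries did not overlap for 6 of the 7, against 57.7% of all genes tested: EET was higher for 4 (29.6% of all genes) and lower for 2 (28.0%). Gas5, Snhg1, Snhg8 and Snhg12 together took 0.0156 ± 0.000103% of the counts in controls and 0.0263 ± 0.00239% with EET. Malat1, Neat1 and Kcnq1ot1 together took 0.0635 ± 0.0112% and 0.0452 ± 0.00049%.

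**Figure D1:**
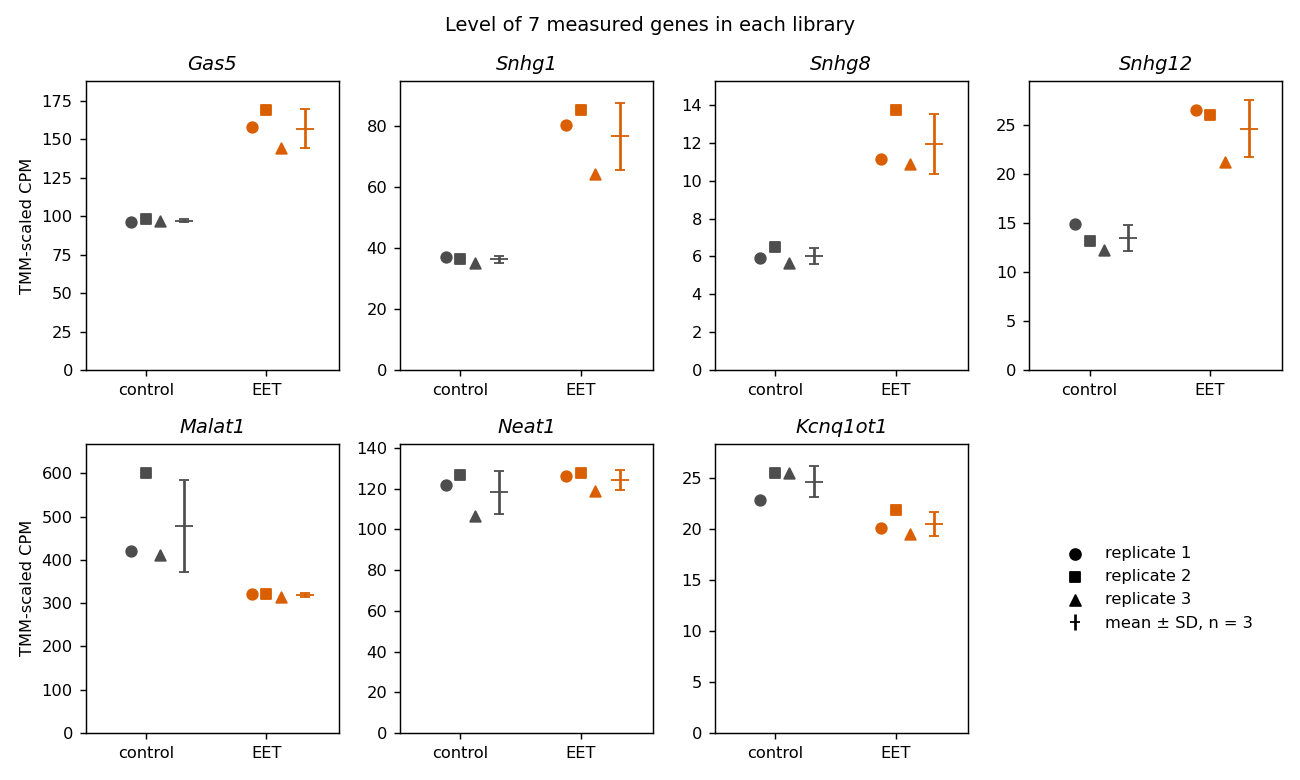
Level of each of the 7 measured genes in each library, in TMM-scaled CPM on a linear axis from 0 (points, libraries by replicate number; bars, mean ± SD of 3 libraries). EET libraries lie above all controls for Gas5, Snhg1, Snhg8 and Snhg12 and below them for Malat1 and Kcnq1ot1, and they overlap for Neat1.

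Gas5 (growth arrest-specific 5; chr1:161034422-161038539, plus strand) is a non-coding host of 9 genes that GENCODE types as snoRNA, Mir5117 among them, whose spliced RNA accumulates when growth stops. It stood at 96.0, 98.2 and 97.0 CPM in control libraries 1 to 3 and at 158, 169 and 144 CPM in EET libraries 1 to 3. The controls were tightly grouped, and every EET library lay well above them. The means were 97.1 ± 1.09 and 157 ± 12.5 CPM (SD, n = 3 each), a log2 fold change of 0.69 ± 0.07 (standard error of the edgeR fit, as below; 95% interval 0.54 to 0.85; edgeR adjusted p = 4.03e-06). Its most similar genes over the 6 libraries were Pole3 and Tmem222, with root mean square differences of centred log2 CPM of 0.036 and 0.037 among 8873 candidate genes.

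Snhg1 (chr19:8723475-8726443, plus strand), host of 8 snoRNA genes, had the largest fold change of the 7. Its levels were 37.2, 36.5 and 35.0 CPM in controls and 80.1, 85.1 and 64.2 CPM with EET. EET library 3 was the lowest of its group and still lay clear of every control. The mean rose from 36.2 ± 1.10 to 76.5 ± 10.9 CPM (ratio 2.11; log2 fold change 1.08 ± 0.10, 95% interval 0.87 to 1.29, edgeR adjusted p = 1.70e-06). The Gas5 to Snhg1 ratio of CPM was 2.68 ± 0.0942 in controls and 2.07 ± 0.153 with EET, with each EET library below every control.

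Snhg12 (chr4:132308623-132311024, plus strand) hosts 4 snoRNA genes and lies near Trnau1ap. Its levels were 14.9, 13.1 and 12.3 CPM in controls and 26.5, 25.9 and 21.2 CPM with EET. All EET libraries were above all controls. The log2 fold change was 0.87 ± 0.11 (95% interval 0.62 to 1.11; edgeR adjusted p = 2.40e-05), from means of 13.4 ± 1.35 and 24.6 ± 2.90 CPM. Snhg8 (chr3:123507552-123508404, minus strand), with the single snoRNA Snora24, was the least counted of the 7. It had 225, 242 and 178 counts in controls, or 5.91, 6.48 and 5.66 CPM, and 391, 429 and 350 counts with EET, or 11.1, 13.7 and 10.9 CPM. The groups did not overlap. Its log2 fold change was 0.98 ± 0.14 (95% interval 0.69 to 1.28; edgeR adjusted p = 4.01e-05).

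Snhg3 (chr4:132348014-132353686, minus strand), host of Snora73a and Snora73b, had no count in any library. A count of 0 allows up to 3 counts, or 0.0788 to 0.096 CPM by library, and this limit covers counting error only. Of its 986 exon bases, 86.3% are also annotated to another gene, 29.8% on the same strand (Rcc1 and Snora73a) and 71.5% on the opposite strand (Gm17300), which leaves 135 bases to Snhg3 alone. The labels used here do not state how reads in shared bases were counted, so a row at 0 does not show that the RNA was absent. Rcc1, which encodes the exchange factor that loads Ran with GTP, rose from 206 ± 8.85 to 253 ± 8.93 CPM (log2 fold change 0.30, edgeR adjusted p = 0.00138), a call lost in a fit that removes each library's trend of counts with transcript length and GC content (0.10, adjusted p = 0.0809).

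The snoRNAs themselves cannot be read from these libraries. The 8 gene models hold 24 annotated snoRNA or small RNA symbols, of which 23 have a row, and all 23 rows were at 0 in all 6 libraries. In the whole table, 283 of 1479 snoRNA rows had any count. The host values are not a reading of the guides processed from their introns. How reads in shared bases were counted is not stated, so rows at 0 do not show that the guides were absent. The exon models of the hosts share 15.2% (Snhg8) to 20.9% (Snhg1) of their bases with these small genes on the same strand.

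Malat1 (chr19:5795690-5802672, minus strand) was the most counted of the 8, ranking 369 by mean CPM among all rows. It fell, from 421, 602 and 412 CPM in controls to 321, 321 and 315 CPM with EET. The EET libraries were nearly equal, while control library 2 stood far above the other controls. The coefficient of variation was 22.4% in controls and 1.12% with EET. The means were 478 ± 107 and 319 ± 3.58 CPM, a log2 fold change of −0.58 ± 0.12 (95% interval −0.85 to −0.32; edgeR adjusted p = 0.00172). Without control 2 the fold change was −0.39 (adjusted p = 0.00144). The call was lost without EET 3 (−0.57, adjusted p = 0.0659) and without control 1 and EET 3 together (−0.67, 0.169). In control 2 the row CT010467.1, annotated as rRNA, took 1.56% of the counts, against 0.974% and 1.05% in the other controls and 0.871% to 0.924% with EET; its part in the Malat1 value was not tested. The genes most like Malat1 over the 6 libraries were Plcg2 and Ssh1, with root mean square differences of 0.094 and 0.113.

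Neat1 (chr19:5824708-5845478, minus strand), the nearest of these genes to Malat1 on the chromosome, was not called. It stood at 122, 127 and 106 CPM in controls and at 126, 128 and 119 CPM with EET. The groups overlapped, and control 3 was the lowest library. The log2 fold change was 0.07 ± 0.08, with a 95% interval of −0.09 to 0.23 (edgeR adjusted p = 0.473), so a change of more than 0.23 upward or 0.09 downward on the log2 scale lies outside that interval. The table sums the isoforms, and the short one, a 3004 bp transcript with a poly(A) tail, cannot be separated from the 20771 bp one. The Malat1 to Neat1 ratio of CPM was 3.46, 4.75 and 3.87 in controls and 2.54, 2.51 and 2.65 with EET, lower in each EET library than in any control. Its nearest profiles were those of Gem and Taf1a, at 0.017 and 0.020.

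Kcnq1ot1 (chr7:143203458-143296549, minus strand) was called lower by a small margin. Its levels were 22.9, 25.5 and 25.5 CPM in controls and 20.1, 21.9 and 19.5 CPM with EET. The groups did not overlap, though control 1 and EET 2 were close. The log2 fold change was −0.27 ± 0.09 (95% interval −0.47 to −0.06; edgeR adjusted p = 0.0299). The call was lost without control 2 (−0.24, adjusted p = 0.113), control 3 (−0.24, 0.108), EET 1 (−0.25, 0.0775) or EET 3 (−0.23, 0.0716). Its nearest profiles were Cep68 and Fbxw7, at 0.021 and 0.035.

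Per kilobase of exon model (RPKM, from the TMM-scaled CPM), the order of the levels in controls was Malat1 at 68.5 ± 15.3, Gas5 at 25.8 ± 0.291, Snhg1 at 12.2 ± 0.371, Snhg8 at 7.06 ± 0.494, Neat1 at 5.69 ± 0.505, Snhg12 at 5.60 ± 0.563 and Kcnq1ot1 at 0.265 ± 0.0163. Neat1 and Snhg12 did not differ beyond their spread, and the neighbours above them were separated. With EET, Malat1 at 45.7 ± 0.513 and Gas5 at 41.7 ± 3.33 RPKM were adjacent, with Gas5 reaching 44.9 in its highest library and Malat1 45.1 in its lowest. Snhg1 stood at 25.8 ± 3.68, Snhg8 at 14.0 ± 1.84, Snhg12 at 10.2 ± 1.21, Neat1 at 5.98 ± 0.231 and Kcnq1ot1 at 0.220 ± 0.013 RPKM. Snhg12, level with Neat1 in controls on this scale, was above it in all EET libraries. The Neat1 value is divided by 20771 bp, whereas the short isoform with a poly(A) tail is 3004 bp. Per kilobase of that isoform Neat1 would stand higher, so its place beside Snhg12 depends on the isoform counted. The order depends on the gene model: per kilobase of the longest spliced transcript, Gas5 was at 146 and Malat1 at 68.5 in controls. On this scale Kcnq1ot1 was far below the rest, so by counts the word abundant applies to Malat1 and Gas5 more than to Kcnq1ot1. Snhg8 had the lowest CPM of the measured genes but not the lowest level per kilobase. The libraries were poly(A)-selected, and neither Malat1 nor long Neat1 ends in an ordinary poly(A) tail. Capture of each RNA was not measured, so the order is one of counts and not of amounts in the cells. Nuclear location was not measured.

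The called changes were upward for the short transcripts and downward for the long ones, a split also seen among messenger RNAs. Neat1, though long, was at 0.07 and not called. Within the short and within the long genes, the size of the change did not follow length. The median log2 fold change of protein-coding genes was 1.08 for 246 genes under 750 bp, 0.72 from 750 to 1499 bp, 0.23 from 1500 to 2999 bp, −0.18 from 3000 to 5999 bp, −0.52 from 6000 to 8999 bp and −0.70 for 537 genes of 9000 bp and over. The longest transcripts, those with retained introns left out, of the hosts that rose are 665 bp (Gas5), 709 bp (Snhg1), 528 bp (Snhg8) and 1538 bp (Snhg12), and those of the others are 6983 bp (Malat1), 20771 bp (Neat1) and 93092 bp (Kcnq1ot1). Whether the trend arose in the cells or in library preparation was not tested, and the trend cannot be told apart from the treatment in this design.

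**Figure D2:**
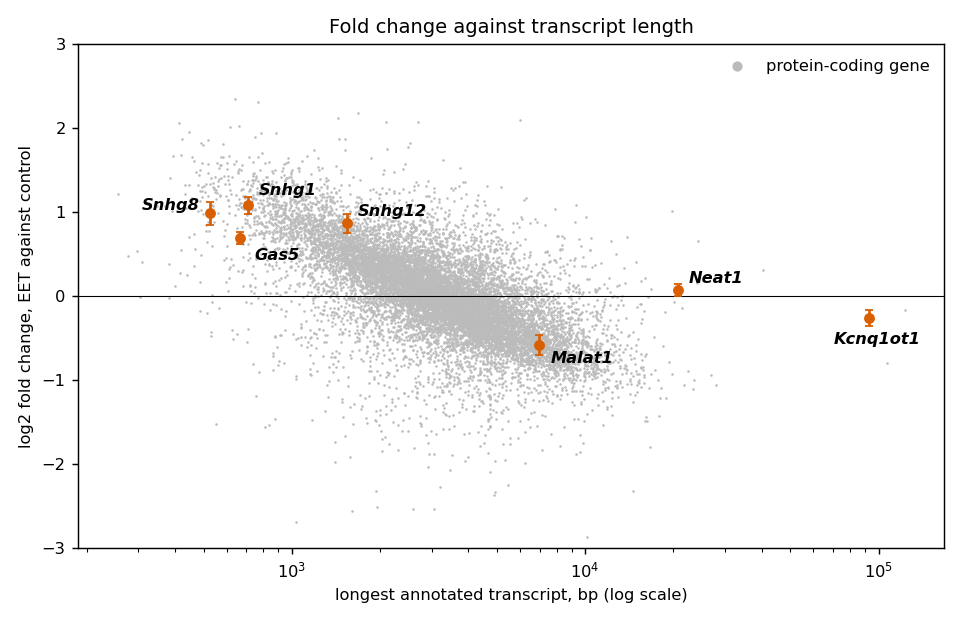
Log2 fold change, EET against control, by longest transcript length in bp on a log axis (grey points, protein-coding genes tested; labelled points with standard errors, the 7 measured genes). Gas5, Snhg1, Snhg8 and Snhg12 lie at the short end with positive values, while Malat1 lies among messenger RNAs of its length. Neat1 is at 0.07, where the median of messenger RNAs of 9000 bp and over is −0.70.

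When each library's trend with length and GC content was removed, the picture by gene changed. Among the 7 genes, 3 were called higher and 2 lower, against 15.2% and 17.2% of 15834 genes (32.4% either way). Snhg12 was still higher (log2 fold change 0.38, edgeR adjusted p = 0.00218), as was Snhg1 by less (0.16, 0.041). Gas5 was lower relative to transcripts of its length (−0.38, adjusted p = 1.14e-04), though not when the summed exon length was used in place of the longest spliced transcript (0.59). Snhg8 was not called (−0.12, 0.529). Malat1 was not called either (−0.11, 0.684). Neat1 was called higher relative to its length (0.72, 0.0157), but at the length of its short isoform it was not (0.06, 0.506). Kcnq1ot1 was lower (−0.47, adjusted p = 0.00175), but only 2 protein-coding genes in the fit were longer than it, and its value moved with the curve. With a locally linear curve it was 0.92 (0.0313), and with the summed exon length −0.03 (0.845).

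**Figure D3:**
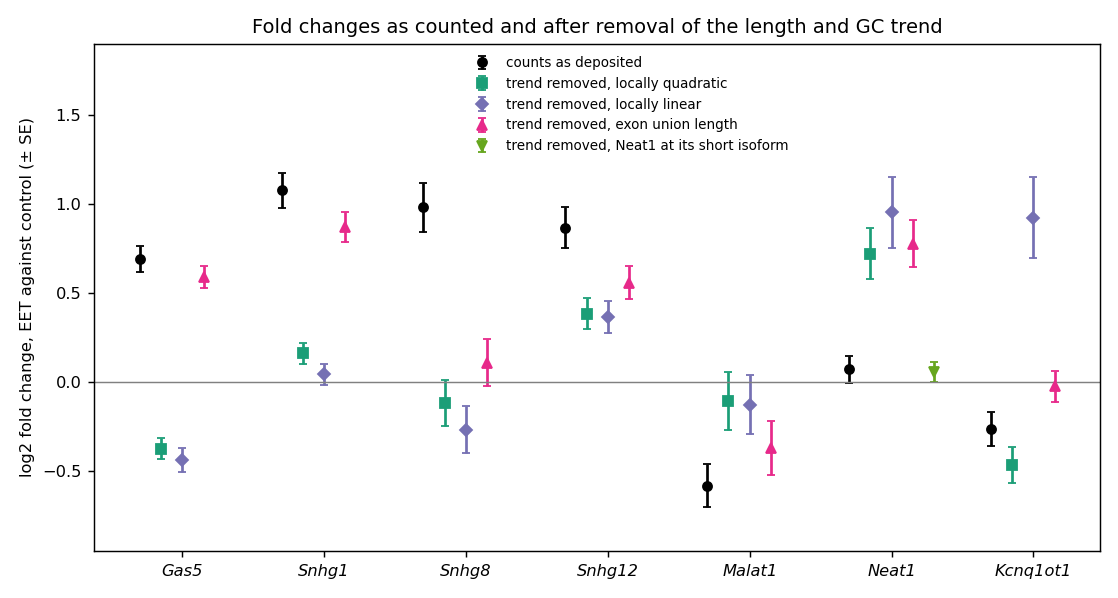
Log2 fold change, EET against control, ± SE (vertical axis) of the 7 measured genes on the counts as deposited and under the ways of taking out the trend with length and GC content, by symbol and colour. Gas5 lies at 0.69 as counted and at −0.38 with the quadratic curve, while Snhg12 stays above 0 throughout.

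Most other snoRNA hosts tested were called higher. Of 16 further non-coding hosts, 14 were tested, of which 10 rose and 0 fell, with a median log2 fold change of 0.87 against 0.005 over all genes tested. The other 4 were not called, among them Snhg11 (−0.04) and Snhg14 (−0.25). Epb41l4aos went from 5.25 ± 0.322 to 13.9 ± 1.82 CPM (log2 fold change 1.40 ± 0.14, edgeR adjusted p = 2.60e-06), and Zfas1, host of Snord12 family snoRNAs, went from 21.6 ± 0.152 to 40.6 ± 3.49 CPM (0.91 ± 0.09, 2.87e-06). With the length and GC trend removed, 4 of 12 were higher and 1 lower, and neither Epb41l4aos (0.14, adjusted p = 0.427) nor Zfas1 (−0.11, 0.285) kept its call. Of 25 protein-coding hosts, many of them ribosomal protein genes, 21 rose and 0 fell (median 0.89). They included Rps2, of the small ribosomal subunit (1983 to 4372 CPM, log2 fold change 1.14), and Eef1b2, an elongation factor subunit (363 to 859 CPM, 1.24). With the trend removed, 15 of the 25 were higher and 4 lower, with Rps2 at 0.37 and Eef1b2 at 0.94. These lists were chosen with earlier results of these data known, so their counts are not independent evidence of a direction.

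**Figure D4:**
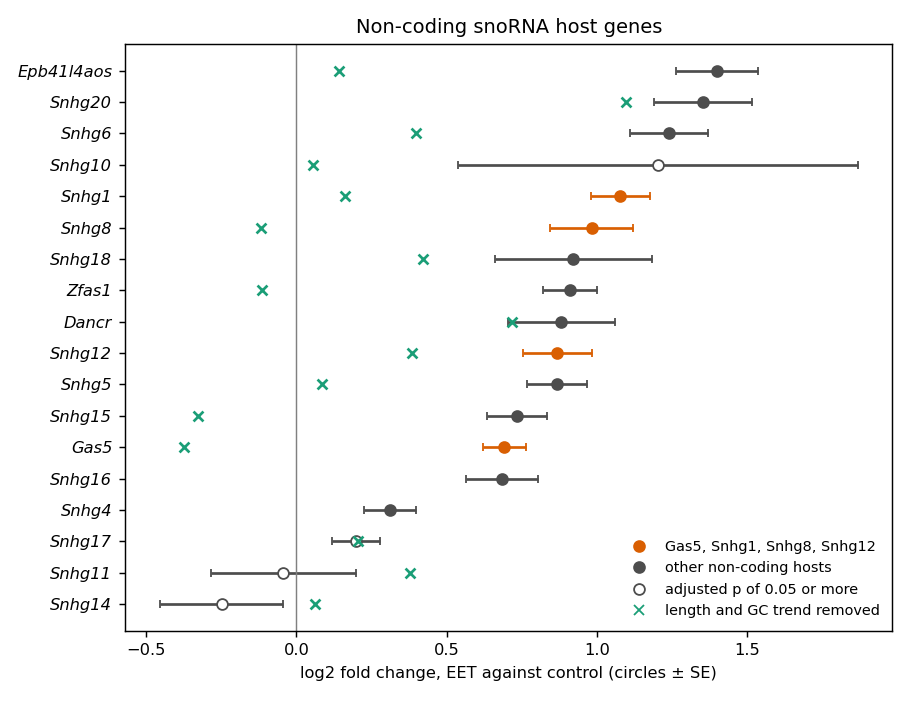
Log2 fold change, EET against control, ± SE (horizontal axis) of the 18 tested non-coding snoRNA hosts, with filled circles for called genes, open circles for an adjusted p of 0.05 or more, and crosses for values with the trend removed. All filled circles lie above 0, and the crosses of Gas5, Snhg15, Snhg8 and Zfas1 lie below it.

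Among proteins that bind and mature snoRNAs, 11 of 16 rose and 2 fell (median 0.41), against 24.6% and 23.3% of all genes tested. With the length and GC trend removed, 8 were called higher and 3 lower (median 0.18), against 15.2% and 17.2%. Nhp2, a core protein of H/ACA particles, rose from 109 to 237 CPM (log2 fold change 1.11) and Snu13, of C/D particles, from 133 to 212 CPM (0.67). With the trend removed they stayed called higher, at 0.31 and 0.41. Of 15 factors of nonsense-mediated decay, the pathway that turns over spliced host RNAs, 5 rose and 5 fell. With the trend removed, 5 of these factors were called higher and 3 lower. Among them were Magoh of the exon junction complex (log2 fold change 1.19) and Smg1, the kinase that phosphorylates Upf1 (−1.09). Both were still called with the trend removed, at 0.27 and −0.44.

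The proteins of the nuclear bodies of Malat1 and Neat1 moved in both directions. So did all genes tested, of which 24.6% were called higher and 23.3% lower. Of 14 nuclear speckle proteins, 4 rose and 6 fell (median −0.02). With the length and GC trend removed, 4 were called higher and 8 lower (median −0.13), against 15.2% and 17.2% of all genes. Son, a scaffold protein of speckles, fell from 493 ± 53.1 to 276 ± 24.9 CPM (log2 fold change −0.84), and Srsf7, a splicing factor, rose (0.60). After removal of the trend both were still called, at −0.21 and 0.40. Of 17 paraspeckle proteins, 2 rose and 3 fell (median −0.05), with Nudt21 of cleavage factor I at 0.45 and the remodeller Smarca4 at −0.40. With the trend removed, 4 of the 17 were called higher and 6 lower. Nudt21 was then at 0.73, still called, and Smarca4 at 0.048, not called. Among 18 other lncRNAs, 4 rose and 3 fell (median 0.18). With the trend removed, 6 of 17 were called higher and 2 lower. H19, the imprinted RNA of the Igf2 locus, rose from 193 to 268 CPM (0.48, edgeR adjusted p = 4.59e-05). Mir22hg rose from 36.9 to 50.5 CPM (0.46, adjusted p = 3.08e-04). With the trend removed H19 was at 0.26, still called, and Mir22hg at 0.071 (adjusted p = 0.420), not called. Over all 729 lincRNA, antisense and processed transcript genes tested, 11.1% were called higher and 6.58% lower.

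Genes that lie beside these RNAs did not follow them as a group. For scale, 24.6% of all genes tested were called higher and 23.3% lower. Of 9 tested neighbours of Malat1 and Neat1, 2 rose and 1 fell: Pola2 had a log2 fold change of 0.25 (not called without control 2) and Ltbp3 of −0.29, beside −0.58 for Malat1. With the length and GC trend removed neither kept its call (0.078, adjusted p = 0.292, and −0.038, 0.588). Beside Snhg12, Trnau1ap, which acts in selenocysteine synthesis, rose (1.20, edgeR adjusted p = 1.70e-06). Beside Gas5, Zbtb37 fell from 19.5 to 8.40 CPM (−1.21, adjusted p = 5.49e-05). Both were still called after removal of the trend, at 0.44 and −0.63. Slc3a2, the heavy chain of amino acid transporters beside Snhg1, was at 0.11, and Prss12, beside Snhg8, was at −0.30, neither called.

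In the imprinted domain that Kcnq1ot1 silences in cis, 6 of 11 listed genes were tested. Of these, 1 was called higher and 1 lower, against 24.6% and 23.3% of all genes tested. Tssc4 rose (log2 fold change 0.75, edgeR adjusted p = 3.99e-05) and Osbpl5 fell (−0.26, 0.00413). With the length and GC trend removed, Tssc4 was at 0.21 (adjusted p = 0.0386) and Osbpl5 was not called (−0.11, 0.120). Cdkn1c, which encodes a cyclin-dependent kinase inhibitor, averaged 0.671 CPM in controls against 1.32 CPM in EET libraries and was not called (0.97, edgeR adjusted p = 0.0523), though it was called without EET 3 (1.27, 0.00795). Tspan32 (0.37), Cd81 (0.14) and Nap1l4 (0.06) were not called. With the trend removed Cd81 (−0.36, adjusted p = 2.55e-05) and Nap1l4 (−0.14, 0.0220) were called lower, and Cd81 was called higher under the replicate block (0.14, 0.0371) and under a filter of over 5 CPM (0.14, 0.0453). Kcnq1, within which Kcnq1ot1 starts, averaged 0.287 CPM in controls and 0.196 CPM in EET libraries, under the filter, and Th was at 0 in all libraries. The counts do not tell the parental alleles apart.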

How the data were processed

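Poly(A)-selected RNA was fragmented and sequenced as paired reads after dUTP marking of the second strand, per the labels' protocols. The authors deposited whole-number counts per gene symbol, not normalized. The submitters' processing notes name FastQC, cutadapt, DESeq2 and GRCm38; for the aligner, the counter, its strand setting and the annotation the sources used here give nothing. Even counts were in excess (61.7 ± 0.388% of counts of 11 to 50 in controls, 65.3 ± 0.331% with EET), so counts divided by 2 were fitted too. Totals of 30371291 to 37243882 counts set the precision, counting error only.

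The main test was edgeR 4.0.16 under R 4.3.3 (filterByExpr, TMM scaling, robust glmQLFit, then glmQLFTest) on the counts, 3 EET against 3 control libraries without a block; 16097 genes were tested and called at a Benjamini-Hochberg adjusted p under 0.05. "Rose" and "fell" refer to called genes. CPM is TMM scaled. Groups came from the sample titles. The labels give no batch. Length and GC trends were removed per library by a loess (span 0.3, degree 2) over 13809 protein-coding genes, as an offset. DESeq2 1.42.0 and limma 3.58.1 were alternatives. Code was tested on simulated data. Gene models came from GENCODE M21, promoters from RefSeq.

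The genes and lists were chosen with earlier results of these data known. Named are the 8 genes, the 2 measured genes of smallest p per list, all measured genes of the host-neighbour and Kcnq1-domain lists, and the 2 nearest profiles for 4 genes among those with a mean of at least 10 CPM.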

Additional observations from a re-analysis of the deposited data

How the results depend on the processing

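Under other scalings, filters and tests on the counts as deposited, and on counts divided by 2, the 4 higher and 2 lower calls among the 8 genes were unchanged. Leaving out 1 library at a time gave 3291 to 4121 higher and 3029 to 3934 lower genes in all, against 3967 and 3749, and 0 to 2 lower calls among the 8. Malat1 ranged from −0.68 to −0.39, losing its call without EET 3 (−0.57, adjusted p = 0.0659), and Kcnq1ot1 from −0.32 to −0.23, with 4 calls lost. Without control 1 and EET 3 together, 1 was lower and Malat1 was at −0.67 (adjusted p = 0.169). Removing the length and GC trend gave 2412 higher genes, 2295 with a linear curve and 2517 with the block. It put Gas5 at −0.38 (linear −0.44), Snhg8 at −0.12 (linear −0.27; exon union 0.11), Malat1 at −0.11 (linear −0.13, exon union −0.37, block −0.095) and Neat1 at 0.72 (linear 0.95, exon union 0.78, block 0.73). Snhg1 was at 0.042 and Kcnq1ot1 at 0.92 with the linear curve, and Kcnq1ot1 at −0.026 with the exon union. Lower calls among the 8 were then 1 (linear) and 0 (exon union), and higher calls 2 with Neat1 at its short isoform. These trend curves beyond the planned one, and the block with the trend, were chosen after seeing the data. Companions that changed sign under them were Nap1l4 (−0.14, linear −0.15; library totals −0.010), Zfas1 (−0.11, linear −0.16), Smarca4 (0.048, linear 0.049, block 0.050), Cd81 (−0.36, linear −0.37, exon union −0.12), Epb41l4aos (linear −0.040), Slc3a2 (exon union −0.031) and Tspan32 (trend with block −0.10; leaving out 1 library −0.30 to 0.70; without control 1 and EET 3 −0.15). The cause of these changes was not tested. With the replicate number as a block, 4238 genes were higher and 4083 lower, and the 8 genes had 4 and 2. The labels give no pairing. Correlations across genes were taken on each library's deviation from its own group's mean log2 CPM, not on the levels. On these deviations, same-numbered control and EET libraries correlated at −0.0035, −0.050 and 0.0089, and differently numbered ones at −0.049 to 0.054. With 3 libraries a group, these values cannot show whether same-numbered libraries shared a mouse, a culture or a batch. The least counted of the 7 measured genes was Snhg8, with 178 to 429 counts a library.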
